A study of Mus musculus with 8 samples.

Results

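The 8 genes described here, Lrp8, Vldlr, Lrp1, Lrp10, Lrp12, Lrp5, Lrp6 and Sorl1, encode receptors of the low-density lipoprotein (LDL) receptor family. They were found by their symbols in the platform annotation: each matched 1 probe set, so they are 8 of the 22206 probe sets tested. The set was chosen by family membership around Lrp8, which had been selected on its large difference in the high against low comparison of these same arrays. The differences of the 8 genes in that comparison are therefore given as a description, with no p-values. Receptors of this family bind lipoproteins and many other extracellular proteins through cysteine-rich repeats and carry them into the cell. Several also act as signalling receptors: Lrp8 and Vldlr pass on the signal of reelin, and Lrp5 and Lrp6 are co-receptors for Wnt proteins. In myeloid cells the family is best known for Lrp1, which takes up remnant lipoproteins, protease and inhibitor complexes and material from dead cells.

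Gene expression was measured on 8 Affymetrix whole-transcript arrays of type 1 conventional dendritic cells (cDC1), the subset that excels at presenting antigen to CD8 T cells. The cells came from the spleens of naive wild-type C57BL/6 mice and were sorted into a TMRM/MG-low and a TMRM/MG-high fraction, each measured on 4 arrays. The dye TMRM accumulates in mitochondria as their membrane potential rises, and the labels do not spell out MG. The labels do not say how many mice or pools stand behind the replicates or give the animals' age, so each error covers the spread between these 8 samples alone, part or all of which may be technical. Values are log2 signals, in which a difference of 1 is a doubling.

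The cells carried the markers of their label. All 10 cDC1 markers were measured, and their mean log2 level was 11.92 to 12.20 in low arrays and 12.0 to 12.15 in high arrays. Of the 10, 0 passed the test (limma, adjusted p under 0.05), and at an unadjusted p under 0.05 there were 2 higher and 1 lower. Xcr1, a chemokine receptor that defines the subset, was 12.51 ± 0.11 in low arrays and 12.65 ± 0.052 in high arrays (SD, n = 4 each). Clec9a, a receptor for dead cells, was 11.99 ± 0.048 and 11.78 ± 0.052, without overlap of the groups. It was called lower after quantile normalization (-0.29, limma adjusted p = 0.0398) and in a robust fit with an intensity trend (-0.21, adjusted p = 0.0125). The robust fit called Cd8a (0.31), Tlr3 (0.19) and Naaa (0.13) higher (limma adjusted p = 0.00816, 0.0416 and 0.0468). These genes were named after their values were seen. Cd8a was also called higher with array weights (0.35, adjusted p = 0.0301) and in 2 of 8 omissions of 1 array. Among the 10, the groups lay apart in 2 higher and 2 lower markers, against 9.7% and 6.37% of all probe sets. Of all probe sets, 8.25% were called different, 1173 higher and 658 lower in the high fraction; after quantile normalization over the tested probe sets the split was 852 and 858. The mean level of 4 poly-A spike-in RNAs, which were added in processing, was lower in the high fraction, at 5.99 to 6.96 against 7.27 to 7.85. As these ranges lie apart, its part in the differences below cannot be told apart from that of the fraction. Fits with this level as a covariate are given below.

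Lrp8, also called apolipoprotein E receptor 2, binds apolipoprotein E, reelin and selenoprotein P, and it was the family gene that differed most between the fractions. Its log2 signals were 7.53, 7.82, 7.42 and 7.99 in TMRM/MG-low replicates 1 to 4 and 8.79, 9.01, 8.47 and 9.18 in TMRM/MG-high replicates 1 to 4. Every high array lay above every low array, with a gap of 0.48 between the lowest high and the highest low array. The means were 7.69 ± 0.26 and 8.86 ± 0.30 (SD, n = 4 each), a difference of 1.17 (SE 0.16) or 2.25-fold. Ordered from the most positive difference, Lrp8 ranked 10 of the 22206 probe sets. In sorted bulk RNA, a larger number of Lrp8-expressing cells and more Lrp8 RNA per cell cannot be told apart.

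The level of Lrp8 was low on this platform. Negative controls are probe sets for introns, with a median signal of 6.76 in low and 6.86 in high arrays. The Lrp8 means stood 0.93 and 2.0 above these medians, with 68.7% and 85.4% of the negative controls below them. All 8 family genes had means above that median in both fractions. As many negative controls reached the level of Lrp8, the size of its difference is uncertain to that extent.

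**Figure D1:**
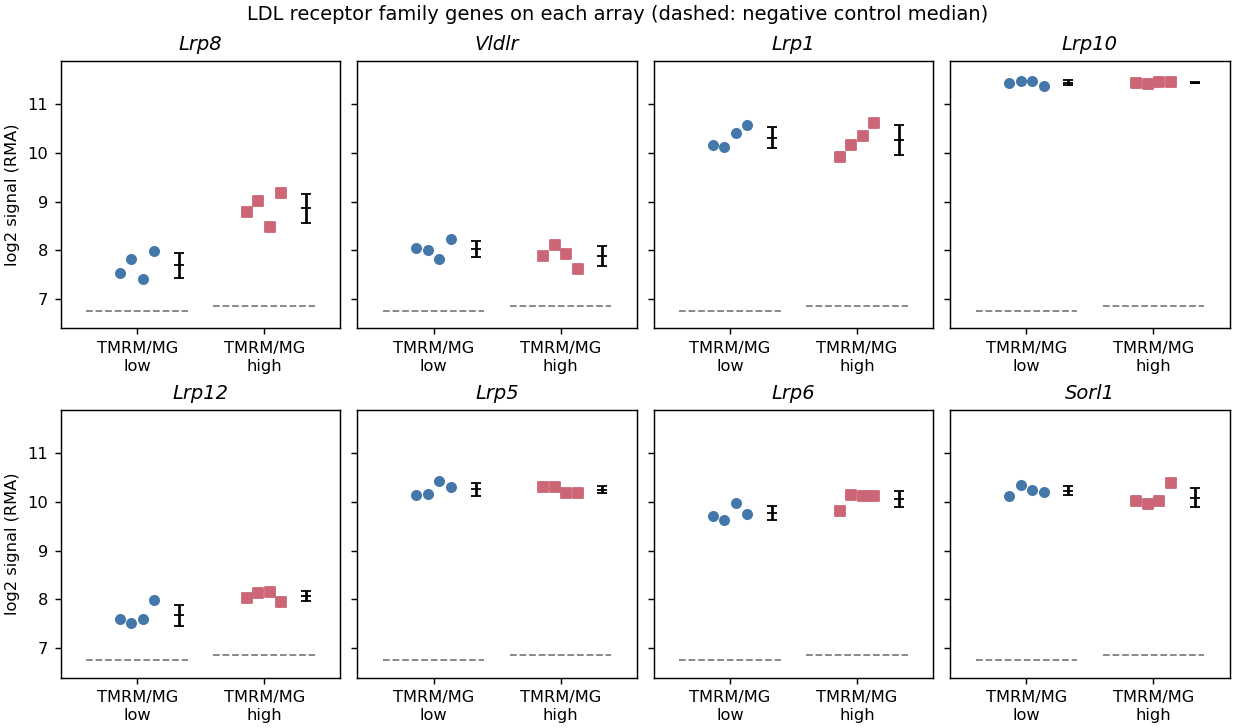
Log2 signal of the 8 family genes on each array, with TMRM/MG-low as circles and TMRM/MG-high as squares, replicates 1 to 4 from left to right, and the mean with its SD beside them; dashed lines mark the negative control medians (6.76 and 6.86). Lrp8 is the only panel of the 8 in which the groups do not overlap.

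Vldlr, the very-low-density lipoprotein receptor, is the other reelin receptor and the family member closest to Lrp8 in its known ligands. Its log2 signals were 8.05, 8.01, 7.82 and 8.24 in the low and 7.89, 8.12, 7.92 and 7.61 in the high replicates 1 to 4. The ranges overlapped: high replicate 2 lay above 3 of the low arrays, and the lowest array of all was high replicate 4. The means were 8.03 ± 0.17 and 7.89 ± 0.21 (SD, n = 4 each), a difference of -0.14 (SE 0.12) that did not pass the threshold. The differences of Lrp8 and Vldlr, which share ligands, had opposite signs, and whether they differ from each other was not tested.

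Lrp1, the large endocytic receptor for remnant lipoproteins and alpha-2-macroglobulin, had log2 signals of 10.15, 10.12, 10.41 and 10.57 in the low and 9.92, 10.15, 10.34 and 10.62 in the high replicates 1 to 4. The high arrays held both the lowest and the highest value. The difference was -0.06 (SE 0.15) between means of 10.31 ± 0.22 and 10.26 ± 0.30 (SD, n = 4 each). Adding the spike-in level to the fit gave -0.75 (SE 0.24), which was not called either. Lrp1 stood 3.55 above the negative control median in the low arrays, and 96.7% of the negative controls lay below it.

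Lrp10, a smaller receptor that moves between the Golgi and endosomes, varied least. Its signals were 11.36 to 11.48 in low arrays and 11.42 to 11.46 in high arrays. The high range lay wholly inside the low range, and the difference was 0.00 (SE 0.074) between means of 11.44 ± 0.055 and 11.44 ± 0.014 (SD, n = 4 each).

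Lrp12, a smaller receptor of the family, was the other member called higher. Its log2 signals were 7.60, 7.51, 7.60 and 7.98 in the low and 8.03, 8.14, 8.16 and 7.94 in the high replicates 1 to 4. The groups met at replicate 4 alone: low replicate 4 was just above high replicate 4, and in 15 of the 16 pairings of a high with a low array the high array was above. The means were 7.67 ± 0.21 and 8.07 ± 0.10 (SD, n = 4 each), a difference of 0.40 (SE 0.11) or 1.32-fold. The call was lost when any 1 array other than low replicate 4 was left out, with differences of 0.37, 0.34 and 0.37 without low replicates 1, 2 and 3 and of 0.41, 0.37, 0.37 and 0.44 without high replicates 1, 2, 3 and 4. Adding the spike-in covariate gave 0.18 (SE 0.23), not called. Lrp12 was also dim, with 68.4% and 73.4% of the negative controls below its low and high means.

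Lrp5 and Lrp6 pair with Frizzled receptors to pass on canonical Wnt signals. Lrp6 had log2 signals of 9.71, 9.63, 9.97 and 9.75 in the low and 9.82, 10.15, 10.13 and 10.12 in the high replicates 1 to 4. High replicates 2, 3 and 4 lay above every low array, and high replicate 1 lay below low replicate 3. The means were 9.77 ± 0.14 and 10.06 ± 0.16 (SD, n = 4 each), and the difference of 0.29 (SE 0.10) did not pass the threshold; it did without low replicate 3 (0.36) and without high replicate 1 (0.37). With the spike-in covariate it was -0.17 (SE 0.17).

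Lrp5 had log2 signals of 10.15, 10.17, 10.42 and 10.31 in the low and 10.31, 10.30, 10.19 and 10.19 in the high replicates 1 to 4. The high arrays fell within the low range, and the difference was -0.01 (SE 0.088) between means of 10.26 ± 0.13 and 10.25 ± 0.068 (SD, n = 4 each).

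Sorl1, which sorts the amyloid precursor protein and other cargo between endosomes and the Golgi, had log2 signals of 10.12, 10.35, 10.25 and 10.21 in the low and 10.01, 9.96, 10.02 and 10.38 in the high replicates 1 to 4. High replicates 1, 2 and 3 lay below every low array, and high replicate 4 was the highest array of all. The means were 10.23 ± 0.095 and 10.09 ± 0.19 (SD, n = 4 each), a difference of -0.14 (SE 0.10) that was not called; without high replicate 4 it was -0.24.

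Across the family, 2 of 8 genes, Lrp8 and Lrp12, were called higher and 0 were called lower by limma (adjusted p under 0.05; at an unadjusted p under 0.05 there were 3 higher and 0 lower), where 5.28% of all probe sets were called higher and 2.96% lower. High arrays lay wholly above low arrays in 1 of the 8, Lrp8, and wholly below in 0, against 9.7% and 6.37% of all probe sets (16.1% in all). The median difference of the 8 was -0.01, beside 0.009 over all probe sets. Because this comparison chose the genes, nothing is read from these counts.

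**Figure D2:**
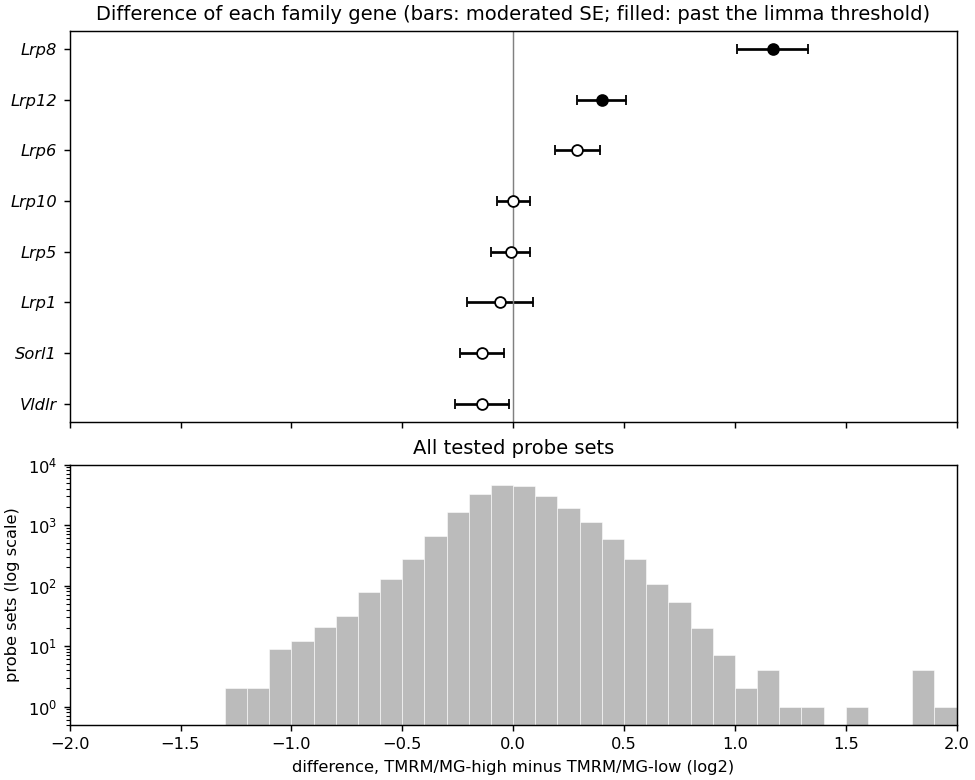
Top, the difference of each family gene in log2 units, high minus low, with the moderated SE; filled points passed the limma threshold. Bottom, the same quantity for all 22206 probe sets, with counts on a log scale: Lrp8 at 1.17 lies in the far right tail, Lrp12 at 0.40 on its shoulder, and Lrp10, Lrp5 and Lrp1 near 0.

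The genes most like Lrp8 were found by the root mean square difference over the 8 arrays, each probe set being centred on its own mean. Of 18569 named probe sets compared, the nearest were Klra17 (0.16), Hpse (0.22), Slamf9 (0.25), Ctsl (0.25) and Sccpdh (0.25), beside a median of 0.64. Klra17, a receptor of the Ly49 family that may share probes with its near copies, was 6.73 to 7.07 in low arrays and 7.82 to 8.14 in high arrays. Hpse, the heparanase that cleaves heparan sulphate chains, was 7.58 to 8.16 and 8.39 to 8.90. Slamf9, a receptor of the signalling lymphocyte activation family, was 7.69 to 8.27 and 8.33 to 9.12. Ctsl, the lysosomal protease cathepsin L, was 8.33 to 8.63 and 9.19 to 9.58. Sccpdh was 5.67 to 6.49 and 6.68 to 7.44, and its low mean of 6.08 lay below the negative control median. The choice by likeness to Lrp8 all but fixed that the ranges of these genes lie apart. Within the family, Lrp12 (0.47) and Lrp6 (0.53) were nearest to Lrp8 and Vldlr (0.71) was farthest.

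Markers of plasmacytoid dendritic cells, the lineage known for its type I interferon output, were higher on the same arrays as Lrp8. Of 13 markers, 11 were called higher and 0 lower (limma), beside 5.28% and 2.96% of all probe sets. At an unadjusted limma p under 0.05, 12 were higher and 0 lower. Of the 13 markers, 0 had means under the negative control median in both fractions. Their mean log2 level was 9.23, 9.33, 9.3 and 9.41 in low replicates 1 to 4 and 10.12, 10.29, 9.95 and 10.38 in high replicates 1 to 4. Every high array lay above every low array, as for Lrp8. In the high arrays replicate 4 was highest and replicate 3 lowest for this list and for Lrp8, an order that the T and NK cell list also had, at 8.94, 9.23, 8.87 and 9.47 in high replicates 1 to 4. In the low arrays replicate 4 was highest for Lrp8 and the plasmacytoid list. The lowest low array was replicate 3 for Lrp8 and replicate 1 for the plasmacytoid list. Siglech, a lectin that marks these cells, rose by 1.81 (SE 0.17, limma adjusted p = 0.00062), Bst2, an interferon-induced surface protein, by 0.79 (SE 0.086, adjusted p = 0.00101), and Tcf4, the lineage's transcription factor, by 0.40 (SE 0.089, adjusted p = 0.0234). Siglech and Bst2 kept their calls in 8 of 8 omissions of 1 array. The Tcf4 call was lost without low replicates 1 (0.41), 2 (0.41) or 4 (0.40) and without high replicates 2 (0.37) or 4 (0.35). The part of these cells in the Lrp8 difference was not tested.

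Markers of other cell types that the sort could hold were measured too. The median difference was -0.75 for neutrophil and -0.73 for T and NK cell markers, with 0 of 6 and 0 of 10 above 0. It was 0.85 for the plasmacytoid list. For platelet and macrophage markers it was 0.11 and 0.14, with 6 of 6 and 10 of 12 above 0. Platelets carry LRP8 protein, and of 6 measured platelet markers limma called 0 (at an unadjusted p under 0.05, 1 higher and 0 lower). Their mean level was 9.0 to 9.31 and 9.29 to 9.39 in low and high arrays. Among them Pf4, a platelet chemokine, was 9.97 ± 0.33 and 9.97 ± 0.072, and Itga2b, the platelet integrin, 9.94 ± 0.12 and 10.02 ± 0.15 (SD, n = 4 each). Macrophages express Lrp1 strongly; limma called 0 of 12 macrophage markers (also 0 at an unadjusted p under 0.05), with a mean level of 9.59 to 9.90 and 9.54 to 10.13, and the receptor Csf1r was 11.36 ± 0.13 and 11.37 ± 0.27. At an unadjusted limma p under 0.05, 8 of 10 T and NK cell markers were lower and 0 higher. By adjusted p, 3 fell and 0 rose, beside 2.96% and 5.28% of all probe sets. These were Cd3e, Cd3d and Cd3g, chosen after their values were seen, whose calls held in 8, 6 and 4 of 8 omissions. The Cd3d call was lost without high replicates 2 or 3, and the Cd3g call without these or low replicates 1 or 2. The mean level of the list was 9.20 to 10.01 and 8.87 to 9.47. Of 6 neutrophil markers limma called 0 (at an unadjusted p under 0.05, 0 higher and 2 lower), and their mean level was 9.41 to 10.48 and 8.39 to 9.74. Among these the calprotectin gene S100a9, named after its values were seen, differed by -0.68 (SE 0.19, limma adjusted p = 0.0514), and it was called lower after quantile normalization (adjusted p = 0.0376), with centred array medians (0.045), without dim probe sets (0.0453) and in a robust fit with an intensity trend (0.0382). The levels of the other lists also overlapped between the fractions. Limma called 0 of 8 cDC2 markers (8.84 to 9.32 and 8.81 to 9.42), 0 of 5 B cell markers (9.29 to 9.88 and 9.37 to 9.78) and 0 of 2 erythroid markers (8.13 to 8.56 and 7.98 to 8.52) (at an unadjusted p under 0.05, 0 higher and 1 lower in all 3 lists together). Of 6 endothelial and stromal markers (8.22 to 8.44 and 8.39 to 8.53) 1 rose, the vascular receptor Kdr, with a call lost without low replicate 2, high replicate 2 or high replicate 4. The part of these cells in the differences of Lrp1 and the other receptors was not tested.

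**Figure D3:**
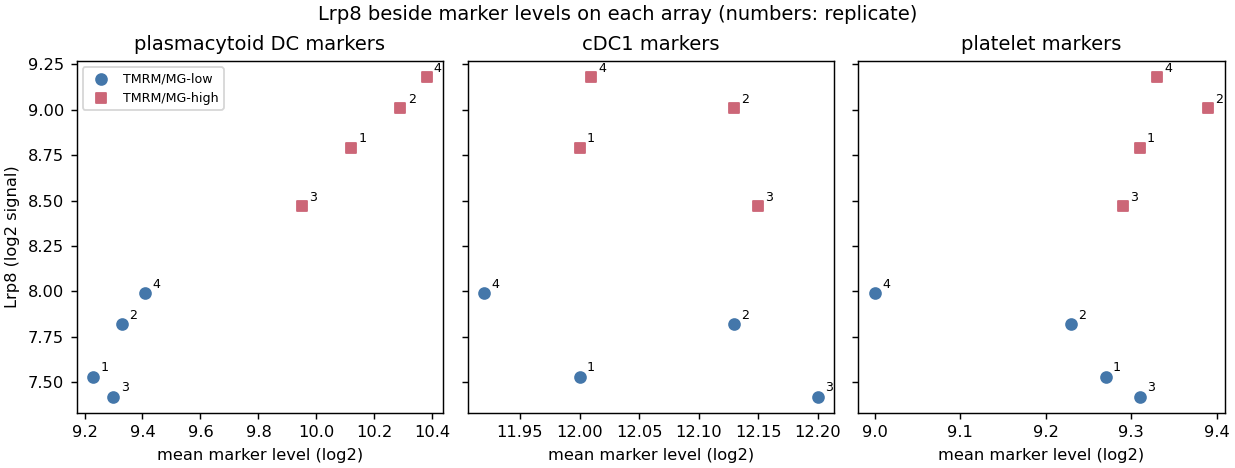
Lrp8 log2 signal of each array against the mean log2 level of plasmacytoid dendritic cell, cDC1 and platelet markers, with circles for TMRM/MG-low, squares for TMRM/MG-high and the replicate number beside each point. The plasmacytoid levels separate the groups as Lrp8 does (up to 9.41 against 9.95 and more), while the cDC1 and platelet levels overlap.

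The genes that work with these receptors were taken as 7 lists: other receptors of the family, ligands, chaperones with degraders and proteases, adaptors with reelin signalling, retromer traffic, Wnt signalling and sterol control. Of 123 genes listed, 110 were measured and 13 were not analysed here. In all, 8 rose and 2 fell, or 9.09%, near the 8.25% called over all probe sets, and the median difference was 0.00 beside 0.009.

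Among 12 other receptors of the family, 0 rose and 1 fell. Ldlrad3, a small membrane protein with LDL receptor repeats, went from 9.21 ± 0.020 in the low to 8.56 ± 0.26 in the high arrays (SD, n = 4 each; difference -0.65, SE 0.12, limma adjusted p = 0.011), a call kept in 8 of 8 omissions of 1 array. It was the one called receptor that moved against Lrp8. Of 11 measured ligands, 0 were called in either direction (limma; at an unadjusted p under 0.05, 1 higher and 2 lower). Reelin, the shared ligand of Lrp8 and Vldlr, was 8.73 ± 0.25 and 8.40 ± 0.097 (difference -0.33, SE 0.12, adjusted p = 0.107), and was called lower without low replicate 3 (-0.41, adjusted p = 0.039). Apoe, the apolipoprotein bound by Lrp8, Vldlr and Lrp1, was 11.17 ± 0.21 and 11.27 ± 0.25 (difference 0.10, SE 0.14, adjusted p = 0.715). Plau, the urokinase cleared by Lrp1, had the smallest p of the list (0.36, SE 0.11, adjusted p = 0.0769).

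Receptors of the family need chaperones to fold, are shed by proteases, and some are marked for degradation. In this list 3 of 11 rose and 0 fell, beside 5.28% and 2.96% of all probe sets. Aph1a, a subunit of the gamma-secretase that cuts shed receptors, went from 10.33 ± 0.21 to 10.89 ± 0.10 (SD, n = 4 each; difference 0.57, SE 0.11, limma adjusted p = 0.0148), and lost its call without high replicate 3 alone (0.55, adjusted p = 0.0505). The chaperone Hsp90b1 (0.32, SE 0.083, adjusted p = 0.0382) and the sheddase Adam17 (0.41, SE 0.12, adjusted p = 0.0493) were near the threshold. Hsp90b1 kept its call only without low replicate 3 and differed by 0.28 to 0.35 on the omissions that ended it. Adam17 kept its call only without low replicate 3 or high replicate 1 and differed by 0.33 to 0.42 on the others. Both lost it after quantile normalization (0.26 and 0.34), with centred array medians (0.31 and 0.40) and with the replicate number as a block (0.32 and 0.41). Both kept it without dim probe sets, in the robust fit with an intensity trend and with array weights. Mylip, the ubiquitin ligase that sends Lrp8 and Vldlr to degradation, was 11.76 ± 0.075 and 11.80 ± 0.088 (0.04, SE 0.082, adjusted p = 0.811). Lrpap1, the chaperone that keeps ligands off new receptors, was 9.40 ± 0.15 and 9.59 ± 0.096 (0.18, SE 0.094, adjusted p = 0.249).

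Of 17 measured adaptors and genes of reelin signalling, 2 rose and 0 fell. Pafah1b1, which encodes the dynein regulator LIS1 that acts with the reelin pathway, went from 10.68 ± 0.10 to 11.17 ± 0.043 (SD, n = 4 each; difference 0.49, SE 0.081, limma adjusted p = 0.00887). Pik3r1, the regulatory subunit of PI3 kinase, rose by 0.39 (SE 0.079, adjusted p = 0.017) and lost its call without high replicate 2 alone (0.36, adjusted p = 0.0597). The endocytic adaptor Dab2 was 7.70 ± 0.19 and 7.74 ± 0.22 (0.04, SE 0.13, adjusted p = 0.872). Of 10 genes of retromer traffic, the machinery that carries Sorl1, 2 rose and 0 fell: the retromer core genes Vps35 (0.37, SE 0.10, adjusted p = 0.0488) and Vps26a (0.42, SE 0.12, adjusted p = 0.049). Both kept their calls only without low replicate 3 or high replicate 1; on the other omissions Vps35 differed by 0.29 to 0.39 and Vps26a by 0.36 to 0.45. After quantile normalization neither was called (0.29 and 0.34), nor with centred array medians (0.35 and 0.40). Both were called with the replicate number as a block (0.37 and 0.42).

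Wnt signalling, the pathway of Lrp5 and Lrp6, had 0 rises and 1 fall among 41 genes (limma; at an unadjusted p under 0.05, 3 higher and 3 lower), and 8 of the 41 lay under the negative control median in both fractions. The fall was in Dvl1, which encodes a Dishevelled protein that links Frizzled and Lrp6 to the destruction complex, from 10.25 ± 0.041 to 9.65 ± 0.073 (SD, n = 4 each; difference -0.60, SE 0.077, limma adjusted p = 0.0027), kept in 8 of 8 omissions. Of 8 measured genes of sterol and nuclear receptor control, 1 rose and 0 fell: Insig1, which retains the sterol-sensing SREBP complex in the endoplasmic reticulum (0.37, SE 0.085, adjusted p = 0.0244). It lost its call without low replicates 1 (0.34) or 4 (0.35) and without high replicates 2 (0.36) or 4 (0.36). Srebf2, the SREBP gene that drives cholesterol uptake, was 12.11 ± 0.044 and 12.12 ± 0.065 (0.01, SE 0.076, adjusted p = 0.973).

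**Figure D4:**
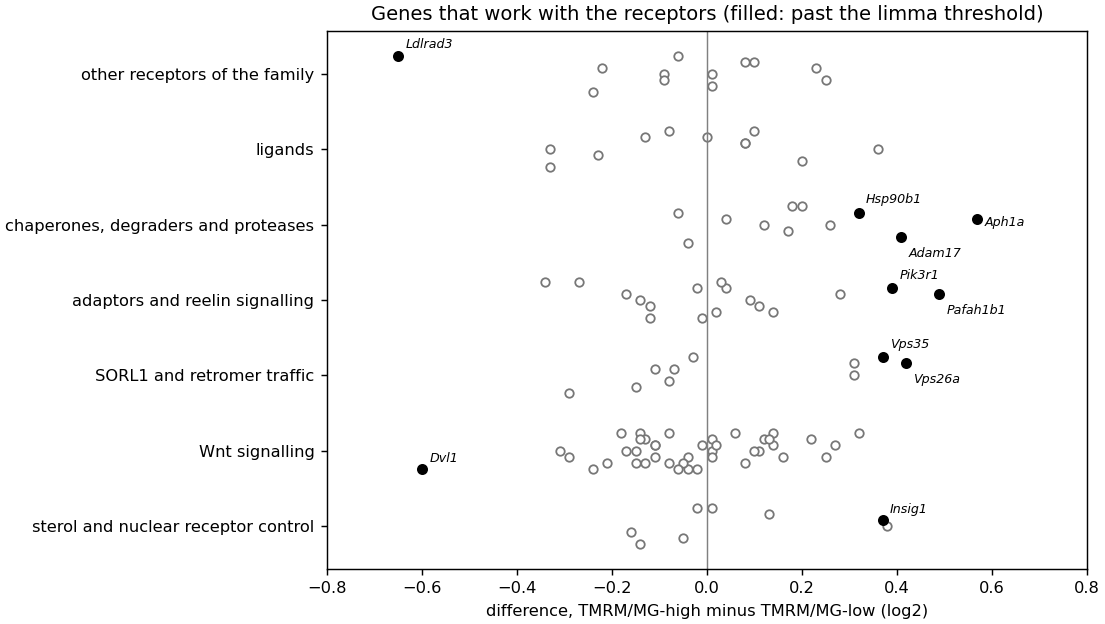
Difference in log2 units, high minus low, of each of the 110 measured genes in the 7 lists; filled points passed the limma threshold and are named. Of these, 8 lie to the right of 0, from Hsp90b1 at 0.32 to Aph1a at 0.57, and 2 to the left, Dvl1 at -0.60 and Ldlrad3 at -0.65.

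Lrp8 was selected on its difference in these same arrays, so nothing is read from its calls here. The Lrp8 difference was 1.07 to 1.30 when each array was left out in turn, and it was called in 8 of 8 omissions. It was 1.15 after quantile normalization, 1.08 with array weights and 1.21 with the spike-in covariate. The covariate raised its SE from 0.16 to 0.36, and the call was lost, as was every other call on the arrays. With the covariate the pathway genes Adam17, Vps26a, Vps35 and Aph1a differed by only -0.01, 0.05, 0.09 and 0.22. Hsp90b1, Pafah1b1, Pik3r1 and Insig1 differed by 0.28, 0.40, 0.50 and 0.51, and Dvl1 and Ldlrad3 by -0.62 and -0.60. The differences of Vldlr and Sorl1 were below 0 in every omission, at -0.22 to -0.05 and -0.24 to -0.10, without being called in any, and those of Lrp1, Lrp5 and Lrp10 lay on both sides of 0.

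**Figure D5:**
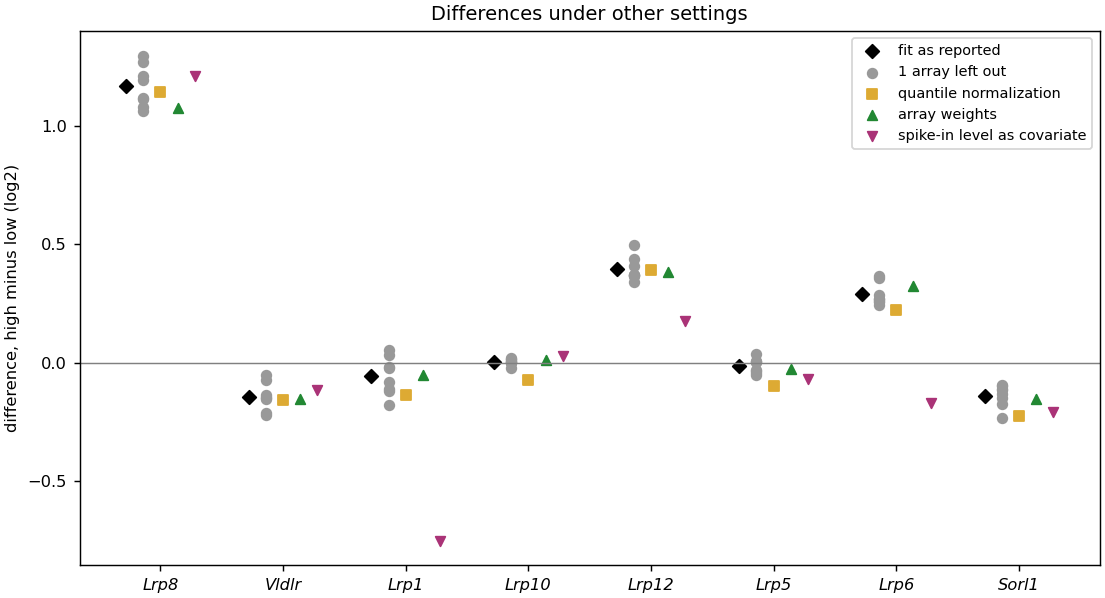
Difference of each family gene in log2 units, high minus low, in the fit as reported (diamond), with 1 array left out (circles), after quantile normalization (squares), with array weights (triangles up) and with the spike-in covariate (triangles down). Lrp8 stays between 1.07 and 1.30, while the covariate moves Lrp1 to -0.75 and Lrp6 to -0.17.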

How the data were processed

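The deposited values are log2 signals made by the authors with RMA in Affymetrix Expression Console 1.1, per the submitters' processing notes. RMA corrects background, gives all arrays one distribution and summarises probes per probe set, so shifts shared by most transcripts are removed. A genome build was not given in the sources used here. Of 28846 rows, 6640 controls were left out, and 19572 of the 22206 tested probe sets had 1 symbol in the platform annotation. The fractions were compared with limma 3.58.1 (lmFit, eBayes; R 4.3.3), two-sided and without a block, with Benjamini-Hochberg adjustment over all tested probe sets; the script was tested on simulated data. The number of arrays limits the precision. The members, lists and alternatives were chosen with earlier results of these data known. Named were the 8 members, up to 3 called genes of each list with the smallest p (1 where none was called), Reln, Apoe, Mylip, Lrpap1, Dab2, Srebf2, 8 markers and the 5 genes most like Lrp8. Further markers were named after their values were seen and were left out of the gap test below. Alternatives were a replicate block, quantile normalization, median centring, omitting dim probe sets, a robust fit with an intensity trend, weights per array, the mean poly-A spike-in level as covariate, another threshold and leaving out each array. Figures were drawn with matplotlib 3.10.9.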

Additional observations from a re-analysis of the deposited data

Results flagged for a closer look

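Of 76 groups of 4 arrays looked at for the named genes, 6 held an array far from the other three by Dixon's gap test; chance alone gives about 1 in 20. In the TMRM/MG-high arrays, Lrp6 was 9.82 in replicate 1 against 10.12 to 10.15 in the others, and Sorl1 was 10.38 in replicate 4 against 9.96 to 10.02. Insig1 was 9.53 in high replicate 3 against 9.68 to 9.71. In the TMRM/MG-low arrays, Dvl1 was 10.18 in replicate 4 against 10.26 to 10.27, Ldlrad3 was 9.18 in replicate 2 against 9.21 to 9.22, and Xcr1 was 12.35 in replicate 4 against 12.55 to 12.57.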

How the results depend on the processing

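The 1173 higher and 658 lower calls over all probe sets became 1950 higher with an intensity trend and robust fit and 2061 and 1174 at an adjusted p of 0.1. Calls among the pathway genes, 8 higher and 2 lower, became 4 higher and 4 lower after quantile normalization, 4 higher with centred array medians, 4 lower with the intensity trend and robust fit and 14 and 5 at an adjusted p of 0.1. With the spike-in covariate 0 probe sets were called by limma in any direction, hence 0 members and 0 pathway genes; at an unadjusted p under 0.05 it had 504 higher and 628 lower in all, 1 higher and 1 lower among the members and 6 and 7 among the pathway genes. Leaving out 1 array gave 183 to 1680 higher and 218 to 793 lower calls in all, 1 to 2 higher members, and 2 to 12 higher and 2 to 3 lower pathway genes; the fewest higher calls in all came without high replicate 2 and the fewest lower ones without high replicate 3, and both counts moved by over 1.5 times without low replicates 1, 2 or 4 or high replicates 2, 3 or 4. Smaller groups also give the test less power. With the replicate number as a block, 1 member (Lrp8, 1.17, SE 0.082) was called in place of 2, and 1225 and 650 probe sets in all. The neutrophil genes S100a8 and S100a9 were called lower with the block (limma adjusted p = 0.00442 and 0.00986). So were the T and NK cell markers Cd2, Ncr1, Klrb1c, Nkg7 and Gzma (limma adjusted p = 0.0452, 0.0134, 0.0179, 0.0145 and 0.0213), not called without it. Cd3e, Cd3d and Cd3g kept their calls with the block, and Cd5 and Il7r were not called. Same-numbered arrays deviated together by r = 0.271, 0.0548, 0.0152 and 0.0391 over probe sets, and other pairings by -0.294 to 0.168. The labels do not say what a shared number stands for, and these values do not settle whether the numbers pair the arrays. Averaging a gene's probe sets was not run, since each gene has 1. Signals near the negative controls limit the sizes for Lrp8, Lrp12 and Vldlr.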
